A study of Mus musculus with 6 samples.

Results

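Chemokine ligands are small secreted proteins that guide leukocytes, and 10 of their genes were followed here: *Ccl3*, *Ccl4*, *Ccl5*, *Ccl6*, *Ccl9*, *Ccl22*, *Ccl24*, *Cxcl2*, *Cxcl10* and *Cxcl16*. They were the rows carrying these gene symbols in both deposited count tables, 10 of 26286 genes. They were chosen by name, with earlier results of these data known. Both tables describe CD4+ CD25high regulatory T cells (Treg) of C57BL/6 mice with a green fluorescent protein reporter of Blimp-1, the repressor encoded by *Prdm1*. The cells came from spleens and lymph nodes that had been pooled, and were sorted into GFP+ and GFP- Treg. All sample titles begin with BlimpHet, which points to heterozygous animals in both populations, and neither the age nor the sex of the mice is given. Each population has 3 libraries. GFP+ library 19 and GFP- library 20 were made by poly(A) selection, while GFP+ libraries 1 and 4 and GFP- libraries 2 and 5 followed an amplification protocol devised for single cells. These numbers were taken from the titles. The design calls the samples of a population biologically independent, but nothing ties a sample to an animal, so p-values reflect the spread among samples, which may be technical.

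A chemokine binds a G protein-coupled receptor on the target cell, and the cell then moves up the gradient. CC chemokines carry a pair of neighbouring cysteines near their start, and CXC chemokines have a residue between them. Monocytes, macrophages and dendritic cells are rich sources, and activated T cells make some of them. Treg are better known for the receptors with which they follow such signals.

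Total counts by poly(A) selection were 28354321 in GFP+ and 27221562 in GFP- Treg. By the single-cell protocol they were 17539208 and 17601420 in GFP+ Treg, against 16317061 and 15224051 in GFP- Treg. In the single-cell table, chromosomes 8 and 9 were empty and chromosome 3 nearly so, which removed *Ccl22* and most chemokine receptors from all 4 of its columns. Genes of these chromosomes are given from the poly(A) pair only, with no replicate check. Libraries of unlike protocol also stood apart, with correlations of log2 CPM (reads scaled to library size) between 0.644 and 0.755, against 0.922 to 0.98 among the single-cell protocol libraries and 0.938 within the poly(A) pair. *Prdm1* had a log2 fold change of 3.93 ± 0.27 (SE, 3 libraries per population), in the direction of the sort. T cell and Treg genes, *Foxp3* and *Cd4* among them, did not pass the test in either direction (0 of 8 tested). Macrophage markers did: all 14 that were tested rose in GFP+ Treg, with a median log2 fold change of 5.67, and none of the 15 listed was at 0 in GFP+ library 19. Of all tested genes 9.82% were called higher. *Cd14*, *Spic*, *Mertk* and *Cd163* reached the filter on low counts (0.569 CPM) in GFP+ libraries only. The count of 14 and the median were therefore fixed in part by the filter. The macrophage list summed to 771, 1430 and 1800 CPM in GFP+ libraries 19, 1 and 4, against 15.7, 27.4 and 35 CPM in GFP- libraries 20, 2 and 5. Its part in the results on chemokines was not tested. In sorted populations, more cells of a type and more RNA per cell cannot be told apart.

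All of the ligands leaned to the GFP+ side. In the poly(A) pair each of the 10 was higher in GFP+ Treg by more than 1 on the log2 scale, a size that 14.3% of 15722 genes with at least 10 reads in the pair reached. The list was drawn up with earlier results of these data known, so its shared direction is no support by itself. Of the 9 other ligands with at least 10 reads in the pair, 4 had a log2 ratio over 1 and 2 one under -1. Over all libraries, 6 had enough reads to be tested and all 6 rose: *Ccl4*, *Ccl5*, *Ccl6*, *Ccl24*, *Cxcl10* and *Cxcl16* (edgeR quasi-likelihood test with the protocol as covariate, Benjamini-Hochberg adjusted p under 0.05). The share of all 10550 tested genes called higher was 9.82%, or 11.4% with DESeq2, which called the same 6 ligands. In the single-cell protocol libraries alone 4 of 6 rose (*Ccl4*, *Ccl5*, *Ccl6* and *Ccl24*), where 5.54% of genes did. The median of the 6 log2 fold changes was 2.56, against -0.08 over all tested genes. These counts do not support each other, since *Ccl6* and *Ccl24* reached the filter of 0.569 CPM in GFP+ libraries only and *Ccl4* in 1 GFP- library. Those ligands were tested because they were high in GFP+ Treg, so their rise was fixed in part by the filter. They also have the largest log2 fold changes, so the count of 6 and the median are no support for a rise. *Ccl5* (2.43), *Cxcl10* (1.17) and *Cxcl16* (1.70) reached the filter in all libraries of both populations. *Ccl3*, *Ccl9* and *Cxcl2* did not pass the filter.

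**Figure D1:**
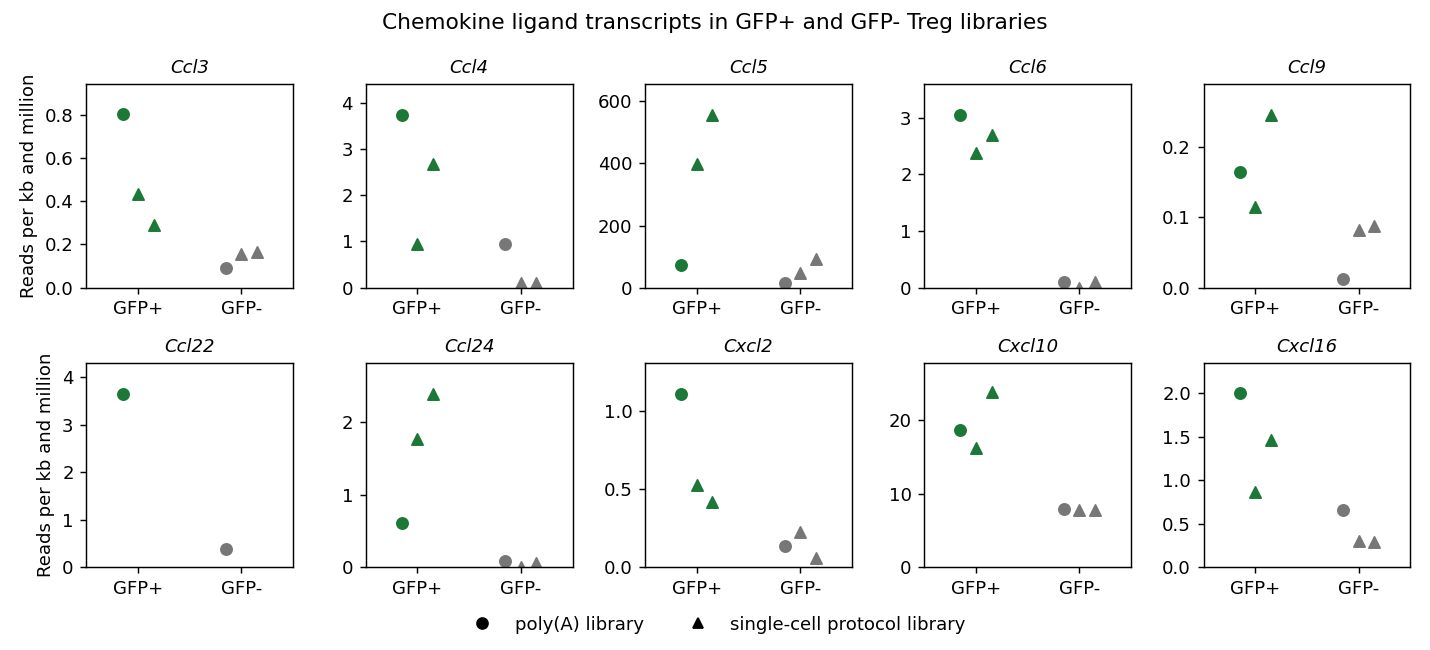
RPKM (reads scaled to gene length and library total; vertical axis, starting at 0, its own scale for each gene) of the 10 chemokine ligands in GFP+ and GFP- Treg. Each point is a library, circles are poly(A) and triangles single-cell protocol libraries, and *Ccl22* has poly(A) values only. For *Ccl5* the GFP+ poly(A) library, at 73.1, lies below the GFP- single-cell protocol library at 92.6, so populations are to be compared within a protocol.

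*Ccl5* was by far the most abundant. Its protein, RANTES, draws T cells, monocytes and eosinophils through receptors that include CCR1 and CCR3, and effector T cells are known to store it. Set per gene length, it had 73.1 RPKM (reads scaled to gene length and to all counts of the library) in GFP+ library 19, against 13.9 RPKM in GFP- library 20. In the single-cell protocol libraries it had 399 and 557 RPKM in GFP+ libraries 1 and 4, against 46.0 and 92.6 RPKM in GFP- libraries 2 and 5. The populations did not overlap within either protocol, and GFP- library 5 lay well above GFP- library 2. On the CPM scale (scaled by TMM, edgeR's library factor) it stood at 22.4, 304 and 378 CPM in GFP+ libraries 19, 1 and 4, against 4.37, 28.9 and 95 CPM in GFP- libraries 20, 2 and 5. The log2 fold change was 2.43 ± 0.42 (SE, 3 libraries per population, edgeR adjusted p = 0.00561). The single-cell protocol libraries alone gave 2.45 ± 0.56 (edgeR adjusted p = 0.0177) and the poly(A) pair 2.40, with a 95% counting interval from 2.18 to 2.62. The 2 protocols gave differences of nearly the same size, on levels that were far apart.

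*Ccl4*, which encodes MIP-1 beta, a chemokine made by activated T cells and macrophages, also rose. It had 1.42, 0.899 and 2.25 CPM in GFP+ libraries 19, 1 and 4, against 0.37, 0.0724 and 0.127 CPM in GFP- libraries 20, 2 and 5. The last 2 of these values are 1 read each. Each GFP+ library lay above the GFP- libraries of its protocol, and also above all 3 of them. The log2 fold change was 2.69 ± 0.60 (SE, 3 libraries per population, edgeR adjusted p = 0.0187), and the poly(A) pair gave 1.98 with a counting interval from 1.20 to 2.84. The call ended without GFP- library 2 (edgeR adjusted p = 0.0512). Without GFP+ library 19 or GFP- library 20 the log2 fold change became 3.996 and 3.992.

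*Ccl3* encodes MIP-1 alpha, the close relative of *Ccl4* that binds CCR1, and it was sparse. It had 18, 6 and 4 reads in GFP+ libraries 19, 1 and 4, against 2, 2 and 2 reads in GFP- libraries 20, 2 and 5. Every GFP+ library had more reads than every GFP- library. The poly(A) pair gave a log2 ratio of 3.11 (counting interval 1.05 to 6.26), while the summed single-cell protocol reads, 10 in GFP+ and 4 in GFP- Treg, gave 1.06 with an interval from -0.73 to 3.19. With no filter on low counts it did not pass (log2 fold change 1.85 ± 0.86, SE, 3 libraries per population, edgeR adjusted p = 0.163). In the RefSeq annotation of GRCm38 the spans of *Ccl3* and *Ccl4* overlap. How reads were assigned where genes overlap is not stated, so a share of the reads of either gene may be missing or belong to the other.

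*Ccl6* had the largest fold change of the tested ligands over all libraries, while in the single-cell protocol libraries *Ccl24* had the larger one (5.95 for *Ccl24* and 5.52 for *Ccl6*). Its protein is a mouse CC chemokine of macrophages and other myeloid cells that acts through CCR1. It had 2.52, 4.90 and 4.93 CPM in GFP+ libraries 19, 1 and 4, against 0.087, 0 and 0.253 CPM in GFP- libraries 20, 2 and 5. In reads this was 124, 60 and 68 in the GFP+ libraries, against 4, 0 and 2 in the GFP- libraries, so the low side rests on 6 reads in all. The groups were far apart in both protocols, a gap fixed in part by its reaching the filter in GFP+ libraries only. The log2 fold change was 5.16 ± 0.57 (SE, 3 libraries per population, edgeR adjusted p = 0.000587). With limma on the log2 RPKM values of the authors' deposited table the call ended (5.98, limma adjusted p = 0.0514). The poly(A) pair gave 4.90 (counting interval 3.50 to 6.79). Summed single-cell protocol reads, 128 in GFP+ and 2 in GFP- Treg, gave 5.74 (3.86 to 8.80).

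*Ccl9*, the neighbour and near relative of *Ccl6* and likewise a ligand of CCR1 made by myeloid cells, did not follow it in the single-cell protocol libraries. It had 14, 6 and 13 reads in GFP+ libraries 19, 1 and 4, against 1, 4 and 4 reads in GFP- libraries 20, 2 and 5. In TMM-scaled CPM, GFP+ library 1 (0.49 CPM) lay just below GFP- library 5 (0.507 CPM), but scaled to library totals it lay above (0.114 RPKM in GFP+ library 1 and 0.0873 RPKM in GFP- library 5). *Ccl9* was the one ligand with single-cell protocol counts whose populations overlapped within a protocol in TMM-scaled CPM. Of all tested genes, which do not include *Ccl9*, 21.3% had populations apart within both protocols with GFP+ higher. The share of genes with every GFP+ library above every GFP- library across protocols was not counted, for any of the ligands described so. The summed single-cell protocol reads gave a log2 ratio of 0.99 (counting interval -0.27 to 2.39), and the poly(A) pair gave 3.75, with a wide interval from 1.03 to 9.15 because GFP- library 20 had 1 read. Without a filter it did not pass (1.60 ± 0.73, SE, 3 libraries per population, edgeR adjusted p = 0.154). By the RefSeq annotation *Ccl5*, *Ccl9*, *Ccl6*, *Ccl3* and *Ccl4* follow each other on chromosome 11 with no other protein-coding gene between them. *Wfdc17*, the coding gene after *Ccl4*, had 21, 11 and 23 reads in GFP+ libraries 19, 1 and 4 and 1, 1 and 0 reads in GFP- libraries 20, 2 and 5. *Heatr9*, the gene before *Ccl5*, had 8, 0 and 2 reads against 9, 0 and 0 in the same order of libraries.

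*Ccl24* encodes eotaxin-2, a ligand of CCR3 that draws eosinophils and is made by alternatively activated macrophages. It had 0.448, 3.27 and 3.91 CPM in GFP+ libraries 19, 1 and 4, against 0.0653, 0 and 0.127 CPM in GFP- libraries 20, 2 and 5. The reads were 22, 40 and 54 in GFP+ libraries, against 3, 0 and 1 in GFP- libraries. All GFP+ values lay above all GFP- values, which was fixed in part by its reaching the filter in GFP+ libraries only. The single-cell protocol gave the higher levels in GFP+ Treg. The log2 fold change was 4.45 ± 0.71 (SE, 3 libraries per population, edgeR adjusted p = 0.00382). The poly(A) pair gave 2.82 (counting interval 1.08 to 5.20), below the 6.29 of the summed single-cell protocol reads, 94 in GFP+ and 1 in GFP- Treg (3.78 to 11.6). The test of that difference between protocols did not pass (poly(A) minus single-cell, -3.42 ± 1.80, SE, n = 6 libraries, edgeR adjusted p = 1). Without GFP+ library 19 or GFP- library 20 the log2 fold change was 6.06, and without GFP- library 2 it was 3.54, each time with the call kept. It was lost with limma on the deposited log2 RPKM (5.23, limma adjusted p = 0.0692).

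*Ccl22*, which encodes MDC, the ligand through which dendritic cells and macrophages reach CCR4 on Treg, lies on chromosome 8. It had 188 reads in GFP+ library 19, against 19 reads in GFP- library 20. That was 6.63 CPM in GFP+ and 0.698 CPM in GFP- Treg, scaled to all counts of the library. The log2 ratio was 3.25 (counting interval 2.57 to 4.01), which covers counting error only, as do all such intervals here. Of 2237 genes on chromosomes 3, 8 and 9 with at least 10 reads in the pair, 13.3% had a log2 ratio over 1. Its coding neighbour *Cx3cl1*, the membrane-bound chemokine fractalkine, went the other way: 37 reads in GFP+ library 19, against 183 in GFP- library 20 (log2 ratio -2.37, counting interval -2.92 to -1.85). *Ccl17*, the other ligand of CCR4, had 3 and 3 reads.

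The CXC ligand *Cxcl10* was the second most abundant. Its protein, IP-10, is induced by interferons and draws T cells with the receptor CXCR3. It had 18.7, 16.2 and 23.9 RPKM in GFP+ libraries 19, 1 and 4, against 7.95, 7.73 and 7.85 RPKM in GFP- libraries 20, 2 and 5. In RPKM the 3 GFP- libraries were close to one another across protocols and all GFP+ libraries lay above them. In TMM-scaled CPM, *Cxcl10* stood at 11.5, 24.7 and 32.5 in GFP+ libraries 19, 1 and 4, against 5.00, 9.70 and 16.1 in GFP- libraries 20, 2 and 5. On that scale the GFP- libraries were not close, and GFP+ library 19 lay below GFP- library 5. Within each protocol the GFP+ libraries were higher on both scales. The log2 fold change, 1.17 ± 0.26 (SE, 3 libraries per population, edgeR adjusted p = 0.0185), was the smallest of the tested ligands and the poly(A) pair gave 1.24 (counting interval 1.01 to 1.46). The call was lost in smaller sets of libraries, with log2 fold changes near that value. They were 1.16 without GFP+ library 19 (edgeR adjusted p = 0.135), 1.15 without GFP- library 20 (edgeR adjusted p = 0.133) and 1.07 without GFP+ library 4 (edgeR adjusted p = 0.068). The edgeR adjusted p was 0.136 in the single-cell protocol libraries alone (1.14 ± 0.40). *Art3*, which overlaps *Cxcl10* in the RefSeq annotation, had fewer reads in GFP+ Treg in each protocol, with 31, 46 and 31 in GFP+ libraries 19, 1 and 4 against 110, 87 and 56 in GFP- libraries 20, 2 and 5.

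*Cxcl16* encodes a chemokine that is made as a membrane protein, works as a scavenger receptor on macrophages and binds CXCR6. It had 2.83, 3.02 and 4.57 CPM in GFP+ libraries 19, 1 and 4, against 0.957, 0.869 and 1.39 CPM in GFP- libraries 20, 2 and 5. All GFP+ libraries were above all GFP- libraries. The log2 fold change was 1.70 ± 0.35 (SE, 3 libraries per population, edgeR adjusted p = 0.0125), with 1.77 ± 0.55 in the single-cell protocol libraries (edgeR adjusted p = 0.0808) and 1.60 in the poly(A) pair (counting interval 1.10 to 2.12). Without GFP+ library 19 or GFP- library 20 the log2 fold change was 1.78 in both fits, with an edgeR adjusted p of 0.0956 and 0.094. *Zmynd15* overlaps *Cxcl16* in the annotation and had 33, 8 and 8 reads in GFP+ libraries 19, 1 and 4, against 15, 1 and 0 in GFP- libraries 20, 2 and 5. Of the proteases that release membrane-bound chemokines, *Adam10* had 126 CPM in GFP+ library 19 and 131 CPM in GFP- library 20, and *Adam17* did not pass (0.53, edgeR adjusted p = 0.18). *Dpp4*, the peptidase CD26 that trims several chemokines, fell by 0.97 on the log2 scale (edgeR adjusted p = 0.0154).

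*Cxcl2*, which encodes MIP-2, a neutrophil attractant that binds CXCR2, was sparse. It had 34, 10 and 8 reads in GFP+ libraries 19, 1 and 4, against 4, 4 and 1 reads in GFP- libraries 20, 2 and 5. Each GFP+ library exceeded each GFP- library in reads and in CPM. The poly(A) pair gave a log2 ratio of 3.03 (counting interval 1.54 to 4.98), and the summed single-cell protocol reads, 18 in GFP+ and 5 in GFP- Treg, 1.59 (0.10 to 3.37). With no filter on low counts the gene passed (2.20 ± 0.71, SE, 3 libraries per population, edgeR adjusted p = 0.0179).

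**Figure D2:**
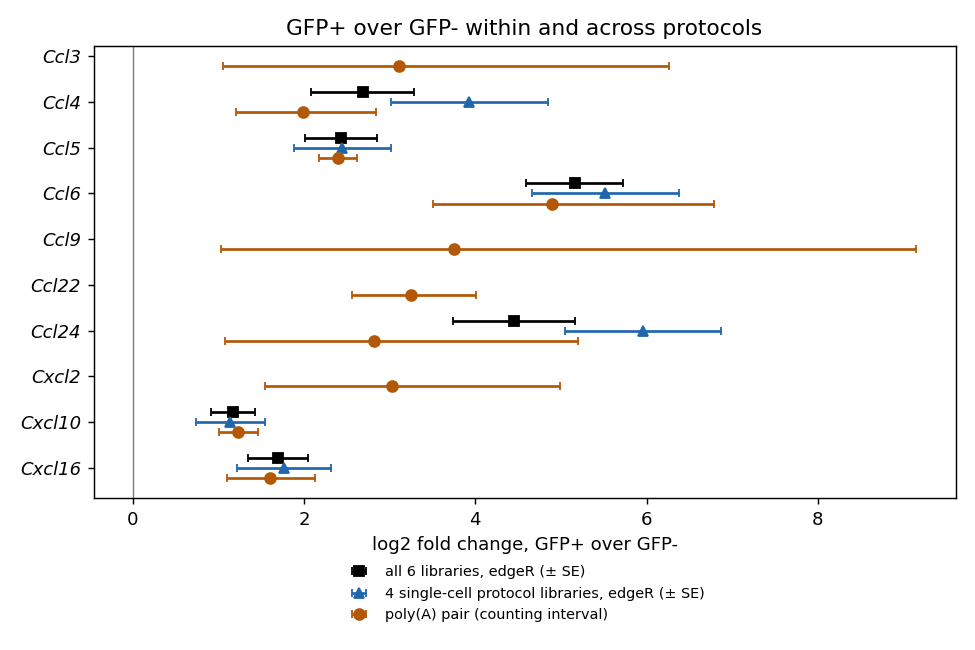
Log2 fold changes of GFP+ over GFP- Treg for the 10 chemokine ligands (rows). Squares are the edgeR fit to all 6 libraries and triangles the fit to the 4 single-cell protocol libraries, both with SE, and circles are the poly(A) pair with its 95% counting interval; genes below the filter have a circle only. All points lie right of 0, from 1.14 for *Cxcl10* to 5.95 for *Ccl24*, both in the single-cell protocol libraries.

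Ordered per gene length in GFP+ library 19, *Ccl5* (73.1 RPKM) and *Cxcl10* (18.7 RPKM) led, and *Ccl4* (3.74), *Ccl22* (3.66) and *Ccl6* (3.05) followed with overlapping counting intervals. *Cxcl16* (2.00), *Cxcl2* (1.11), *Ccl3* (0.804), *Ccl24* (0.602) and *Ccl9* (0.164 RPKM) came after them. The intervals of *Cxcl2*, *Ccl3* and *Ccl24* overlapped too. In GFP- library 20 the order began in the same way, with *Ccl5* (13.9), *Cxcl10* (7.95) and *Ccl4* (0.946 RPKM), but *Cxcl16* (0.660) and *Ccl22* (0.385 RPKM) came next and *Ccl6* was in place 7 (0.102 RPKM). *Ccl9* was last there as well, at 0.0122 RPKM. Whether the GFP+ to GFP- difference depended on the protocol was tested for the 6 ligands above the filter, and none passed with edgeR. No gene of 10550 did, with edgeR or DESeq2, and 27 genes (0.256%) had an unadjusted edgeR p under 0.05, none of them a ligand followed here. This test had 2 residual degrees of freedom and only libraries 19 and 20 for poly(A). It could hardly find a dependence on the protocol, so its outcome does not show that there was none.

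Of the other 30 chemokine ligand genes, 3 were tested and 1 rose, where 9.82% of all tested genes did. This was *Cxcl9*, which like *Cxcl10* is induced by interferon and binds CXCR3. It had 0.509, 1.72 and 4.28 CPM in GFP+ libraries 19, 1 and 4, against 0.087, 0.217 and 0.38 CPM in GFP- libraries 20, 2 and 5 (log2 fold change 3.08 ± 0.56, SE, 3 libraries per population, edgeR adjusted p = 0.00738). *Cxcl9* reached the filter in GFP+ libraries only, with 4, 3 and 3 reads in the GFP- libraries, so its rise was fixed in part by the filter. *Ccl1* (0.30, edgeR adjusted p = 0.594), a ligand of CCR8, and *Xcl1* (-1.13, edgeR adjusted p = 0.255), the lymphotactin of CD8 T and natural killer cells, did not pass. A further 5 genes had no read in any library, namely *Ccl21b*, *Ccl26*, *Ccl28*, *Cxcl14* and *Cxcl17*. *Ccl8* was seen in GFP+ libraries alone, with 15, 7 and 2 reads in GFP+ libraries 19, 1 and 4 against 0, 0 and 0 in GFP- libraries 20, 2 and 5. Of the 9 other ligands with at least 10 reads in the poly(A) pair, 4 had a log2 ratio over 1 and 2 one under -1, where 14.3% and 7.25% of all such genes did. Besides *Ccl8* these were *Ccl20* (3.64), *Cxcl9* (2.58) and *Cxcl3* (2.14) on the high side, and *Cx3cl1* (-2.37) and *Xcl1* (-1.15) on the low side.

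**Figure D3:**
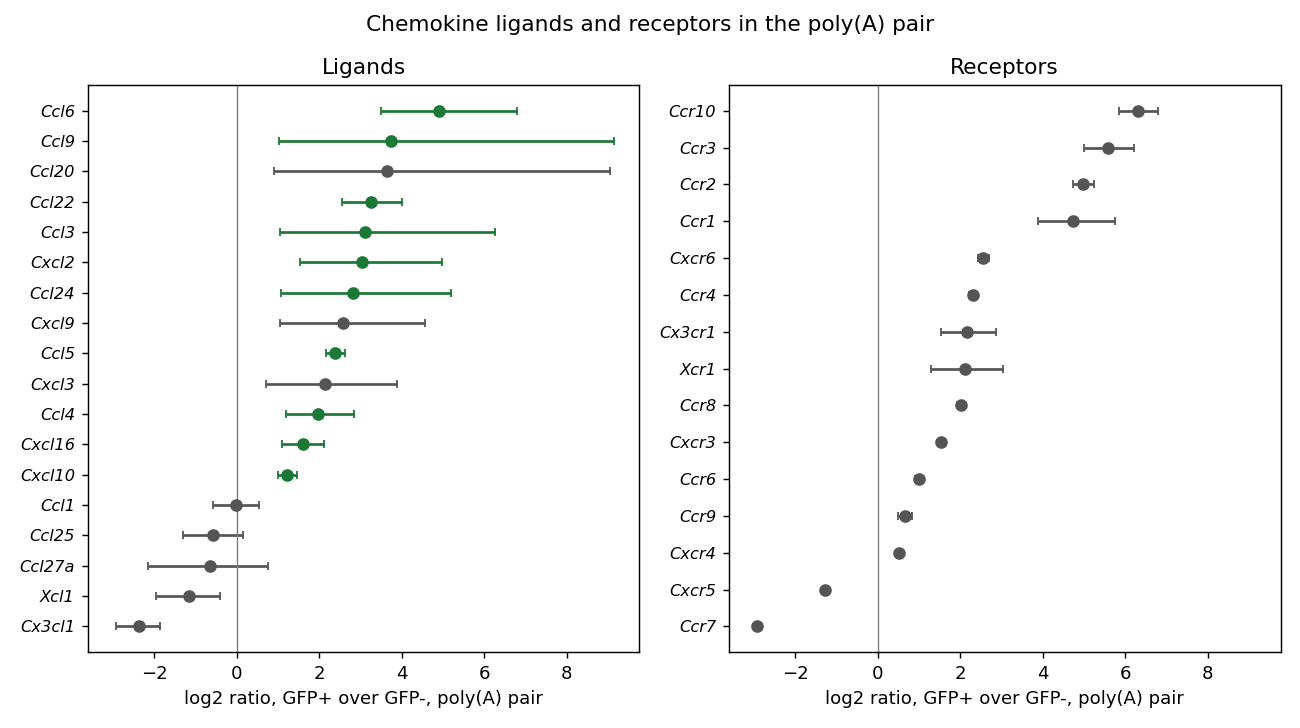
Log2 ratio of GFP+ library 19 over GFP- library 20 (horizontal axis) with 95% counting intervals for ligands (left) and receptors (right) that had at least 10 reads in the poly(A) pair and 1 in each library. Green marks the ligands followed here, which lie between 1.24 (*Cxcl10*) and 4.90 (*Ccl6*), while *Cx3cl1* is at -2.37 and *Ccr7* at -2.93.

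The receptors for these ligands were read mostly from the poly(A) pair, since 10 of 17 listed chemokine receptor genes lie on chromosomes 3, 8 and 9. Values are CPM scaled to all counts, without a replicate check. *Ccr1*, the receptor of CCL3, CCL5, CCL6 and CCL9, had 10.8 CPM in GFP+ library 19, against 0.404 CPM in GFP- library 20 (log2 ratio 4.74, counting interval 3.88 to 5.76). *Ccr3*, the receptor of CCL24 and CCL5, had 43.8 CPM in GFP+ and 0.918 CPM in GFP- Treg (5.58, interval 5.01 to 6.21). *Ccr4*, the receptor of CCL22, had 208 CPM in GFP+ and 42.2 CPM in GFP- Treg (2.30), and *Cxcr6*, the receptor of CXCL16, 101 CPM in GFP+ and 17.1 CPM in GFP- Treg (2.56).

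*Cxcr3*, the receptor of CXCL9 and CXCL10, was counted in both protocols. It had 194, 558 and 739 CPM in GFP+ libraries 19, 1 and 4, against 68.6, 96.8 and 167 CPM in GFP- libraries 20, 2 and 5, in CPM scaled by TMM. It rose by 2.03 ± 0.33 on the log2 scale (SE, 3 libraries per population, edgeR adjusted p = 0.00418). *Cxcr2*, the receptor of CXCL2, was nearly absent, with 5, 0 and 3 reads in GFP+ libraries 19, 1 and 4 against 4, 0 and 0 in GFP- libraries 20, 2 and 5. Of the 5 receptors that could be tested, *Cxcr3*, *Ccr6* (1.53) and *Ccr10* (5.90) rose, *Ccr7* fell by 3.84 on the log2 scale, and *Cxcr4* did not pass (0.54, edgeR adjusted p = 0.335). *Ccr6* binds CCL20, *Ccr10* binds CCL27 and CCL28, *Ccr7* binds CCL19 and CCL21, and *Cxcr4* binds CXCL12.

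The 6 ligands with a promoter in the RefSeq table (GRCm38.p6, 250 bases before and 50 after the start of the gene) were searched on both strands for TGANTCA, the letters of the AP-1 factors that act on many cytokine genes, and for TATAAA, the letters of the TATA box. Shown are the promoters of *Cxcl10* and *Ccl9*, which had a match, and of *Ccl6*, the ligand with the largest fold change over all libraries, which had none. Capitals mark the matches. The regions are chr5:92348840-92349139 (minus strand) for *Cxcl10*, chr11:83578587-83578886 (minus strand) for *Ccl9* and chr11:83593038-83593337 (minus strand) for *Ccl6*, each 5′ to 3′.
Cxcl10: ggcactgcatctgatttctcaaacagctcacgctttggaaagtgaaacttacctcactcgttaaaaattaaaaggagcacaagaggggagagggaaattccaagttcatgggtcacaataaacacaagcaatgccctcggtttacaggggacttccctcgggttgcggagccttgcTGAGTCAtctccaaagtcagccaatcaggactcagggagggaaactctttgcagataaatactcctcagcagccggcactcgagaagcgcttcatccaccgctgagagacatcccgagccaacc
Ccl9: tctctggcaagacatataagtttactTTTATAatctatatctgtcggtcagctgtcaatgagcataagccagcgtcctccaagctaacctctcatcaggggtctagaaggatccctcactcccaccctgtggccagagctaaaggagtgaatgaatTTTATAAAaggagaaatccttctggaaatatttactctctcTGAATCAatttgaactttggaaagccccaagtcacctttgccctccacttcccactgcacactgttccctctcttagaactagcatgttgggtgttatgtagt
Ccl6: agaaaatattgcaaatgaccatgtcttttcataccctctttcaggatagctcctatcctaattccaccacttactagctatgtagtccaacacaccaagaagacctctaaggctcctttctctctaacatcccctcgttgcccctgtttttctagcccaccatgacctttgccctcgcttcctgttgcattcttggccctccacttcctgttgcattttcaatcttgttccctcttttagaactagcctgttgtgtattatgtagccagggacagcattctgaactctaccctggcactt
TGANTCA is in 7.81% of all 32851 promoters in that table, and was found once in *Cxcl10* and once in *Ccl9*. TATAAA is in 13.6% of promoters and was in *Ccl9* alone, where a match on each strand overlaps. *Ccl3*, *Ccl6*, *Ccl22* and *Cxcl2* held neither of these letters in this window. Longer motifs of NF-kB, of interferon response elements and of Blimp-1 were also searched in these promoters, some with matches, and are not reported here. Matches of letters are a description and do not show binding.

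Markers of other cell types were read in the same libraries, since several of these ligands are known from myeloid cells. Besides the macrophage list, *Itgax* (3.78), *H2-Ab1* (1.59) and *Cd74* (1.90), genes of dendritic cells that macrophages and B cells share, rose, 3 of 6 tested members of the dendritic cell list. The summed level of that list was 897, 1120 and 1830 CPM in GFP+ libraries 19, 1 and 4, against 324, 305 and 499 CPM in GFP- libraries 20, 2 and 5. Nearly all of it was *Cd74*, *H2-Ab1* and *H2-Aa*. They had 673, 144 and 61.5 CPM in GFP+ library 19, against 230, 57.6 and 31.7 CPM in GFP- library 20. *H2-Aa* (1.51), *Batf3* (1.22) and *Siglech* (-0.76) did not pass. *Flt3* had 53, 5 and 4 reads in the GFP+ libraries and 35, 7 and 0 in the GFP- libraries. *Zbtb46* had 138, 4 and 5 against 74, 5 and 4 reads. *Cd209a* had 23 against 6 reads in the poly(A) pair. *Clec9a*, which marks cross-presenting dendritic cells, had 0.0203, 0 and 0 CPM in the GFP+ libraries and 0 CPM in the GFP- libraries. Natural killer and CD8 T cell lists had no member that rose (1 of 2 tested fell in each, *Ncr1* and *Cd8a*). Of 8 neutrophil markers only *Ly6g* was tested, and it did not pass over all libraries (1.32 ± 0.44, SE, 3 libraries per population, edgeR adjusted p = 0.0898) but rose in the single-cell protocol libraries (1.71 ± 0.47, edgeR adjusted p = 0.047). *Csf3r*, the receptor of a neutrophil growth factor, was below the filter with 116, 7 and 13 reads in GFP+ libraries 19, 1 and 4, against 3, 1 and 0 reads in GFP- libraries 20, 2 and 5. Of others below the filter, *Mpo* had 3, 1 and 0 reads in these GFP+ libraries against 8, 1 and 3 in these GFP- libraries. *Retnlg* had 1, 2 and 9 against 0, 0 and 0. Neutrophil markers summed to 3.28, 54.0 and 24.4 CPM in GFP+ libraries 19, 1 and 4, against 0.979, 14.4 and 8.99 CPM in GFP- libraries 20, 2 and 5. In the single-cell protocol libraries nearly all of this was *Ly6g*, at 53.2 and 22.6 CPM in GFP+ libraries 1 and 4, against 14.3 and 8.61 CPM in GFP- libraries 2 and 5. B cell genes summed to 100, 234 and 319 CPM in the GFP+ libraries, against 70.1, 145 and 181 CPM in the GFP- libraries, with 1 of 6 tested members (*Blk*) higher. Plasma cell genes had 1 of 4 higher (*Sdc1*) and summed to 30.6, 14.6 and 151 CPM in the GFP+ libraries, against 7.42, 3.77 and 21.5 CPM in the GFP- libraries. Red cell genes had 2 of 4 higher (*Hba-a1* and *Hba-a2*) and summed to 96.6, 1040 and 1810 CPM in the GFP+ libraries, against 34, 162 and 593 CPM in the GFP- libraries. Of 2 tested stromal and endothelial genes *Col1a1*, a collagen of fibroblasts, rose (2.61, edgeR adjusted p = 0.00284) and *Pecam1*, of endothelium and leukocytes, fell by 1.42 on the log2 scale (edgeR adjusted p = 0.0125). The untested members were sparse and mostly went against *Col1a1*. In GFP+ libraries 19, 1 and 4 against GFP- libraries 20, 2 and 5, *Col1a2* had 16, 1 and 0 against 27, 3 and 2 reads. *Pdgfrb* had 24, 2 and 2 against 41, 3 and 3 reads. In the poly(A) pair *Col3a1* had 0 against 3 reads, while *Cdh5* had 23 against 5. The stromal and endothelial list, without *Cdh5*, summed to 52.8, 32.6 and 23.6 CPM in the GFP+ libraries, against 112, 101 and 54.5 CPM in the GFP- libraries. Most of this was *Pecam1*, at 46.7, 31.3 and 22.3 CPM in the GFP+ libraries, against 110, 100 and 53.7 CPM in the GFP- libraries. Of all 10550 tested genes, 1036 were called higher and 392 lower, so counts in lists with 6 or fewer tested members say little. The part of these cell types in the chemokine results was not tested.

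**Figure D4:**
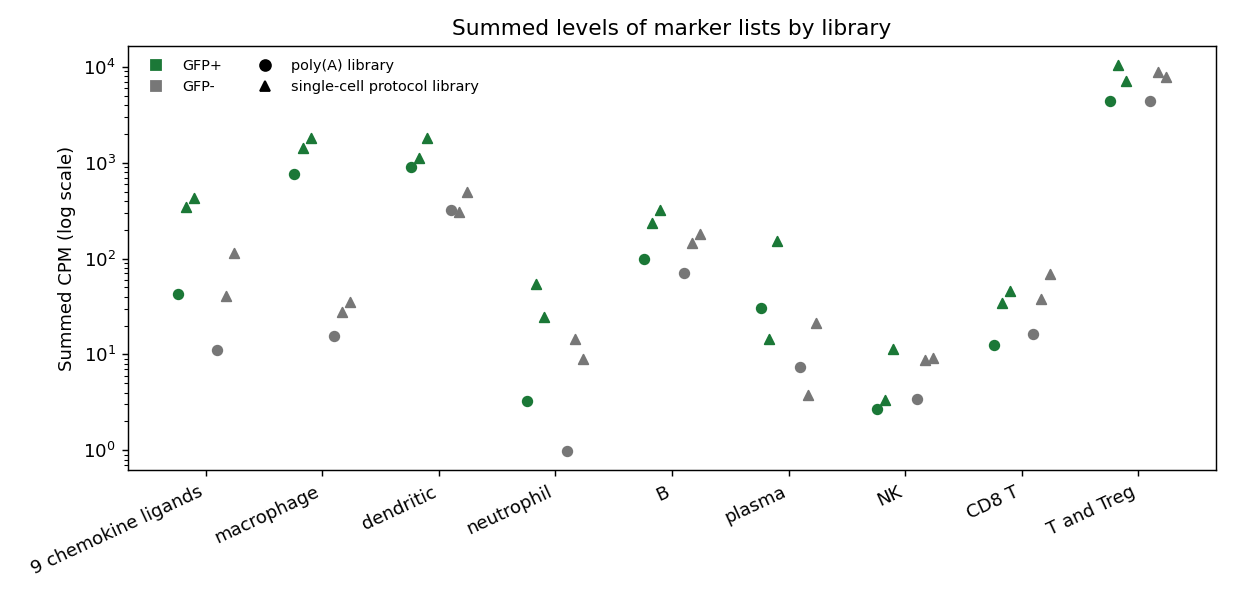
Summed CPM (log scale) of the 9 chemokine ligands with counts in both protocols and of marker lists, one point per library, GFP+ left of GFP- in each list. The macrophage list lies between 771 and 1800 CPM in GFP+ and between 15.7 and 35 CPM in GFP- libraries, while the T cell and Treg list overlaps between the populations.

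Single macrophage genes can be set beside the ligands in the poly(A) pair. *Csf1r*, the receptor of the macrophage growth factor, had a log2 ratio of 6.42, and *Lyz2*, lysozyme of myeloid cells, 3.34. The lowest member of the macrophage list was *Ly86*, at 1.83 (counting interval 1.47 to 2.19). The interval of *Cxcl10* lay below that of *Ly86*, and those of *Ccl6* (3.50 to 6.79) and *Ccl22* (2.57 to 4.01) lay above it. The intervals of all other ligands followed here (*Ccl3*, *Ccl4*, *Ccl5*, *Ccl9*, *Ccl24*, *Cxcl2* and *Cxcl16*) overlapped that of *Ly86*, for *Ccl5* only just. *Ly86* stood apart from its list, whose median log2 ratio was 6.30 and whose next lowest member was *Itgam* at 3.23. The intervals of *Ccl4*, *Ccl5*, *Cxcl10* and *Cxcl16* lay below that of *Lyz2* (3.03 to 3.68), and those of the other ligands followed here overlapped it.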

How the data were processed

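The authors deposited raw read counts per Entrez gene, in 1 table for the poly(A) and 1 for the single-cell protocol libraries, and log2 RPKM per library. The submitters' processing notes name Subread, featureCounts, edgeR and build mm9. Their versions, the counting settings and the handling of strand were not given in the sources used here, and reads of overlapping genes cannot be told apart. Per the file headers the tables give gene lengths, which in the single-cell table are mostly limited to 3000 bases. Sorted log2 RPKM values deposited by the authors were nearly identical in all libraries, and they served as an alternative only.

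Both tables held the same 26286 genes, 540 of them without a symbol (0.604% to 4.53% of a library's counts). Chromosomes came from RefSeq (GRCm38.p6) by Entrez number. A chromosome was left out of the fits where under 1% of its genes with at least 10 poly(A) reads had single-cell protocol reads, which met chromosomes 3, 8 and 9. The design had foreseen only chromosomes with no reads at all, and chromosome 3 had 1726.

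The filterByExpr rule, grouped by population, left 10550 genes, which were scaled by TMM (factors 2.06 and 2.02 for the poly(A) libraries, 0.519 to 0.847 for the others). The quasi-likelihood test of edgeR 4.0.16 in R 4.3.3 used all 6 libraries, with protocol as a covariate (3 residual degrees of freedom). It was repeated on the single-cell protocol libraries alone and with an interaction term. P-values were adjusted by Benjamini-Hochberg over all tested genes. SE were derived from the F statistic. Counting intervals are exact binomial or Poisson 95% intervals. The fit was tested on simulated data. Alternatives used DESeq2 1.42.0 and limma 3.58.1, other scalings and filters, no covariate, and each library left out. No 2 libraries matched within sampling noise (chi-square at least 93.6 per degree of freedom).

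The ligands, gene lists and tests were chosen with earlier results of these data known. Some genes of the lists are not reported here. Named are all 10 ligands, receptors of theirs, other ligands and receptors past the threshold, and marker lists by counts and sums. Other genes were named after their values were seen: those that overlap or neighbour a ligand, and ligands with an outlying ratio in the poly(A) pair.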

Additional observations from a re-analysis of the deposited data

How the results depend on the processing

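The 6 tested ligands were higher in GFP+ Treg under every alternative that tested them. All 6 passed with DESeq2 size factors, with library totals, with the DESeq2 Wald test and with limma-voom. In that order, 984, 1075, 1204 and 1080 of 10550 genes were called higher. Without a filter 7 of 9 passed, *Cxcl2* being the seventh, where 1594 of 18368 genes were called higher. At a stricter filter only 3 were tested and 3 passed, where 686 of 8208 genes were called higher. Of these 3, *Ccl6* met that filter through GFP+ libraries only. With the deposited log2 RPKM and limma 4 passed, *Ccl6* and *Ccl24* being lost, where 925 of 10550 genes were called higher. Without the protocol covariate 0 passed, although the log2 fold changes lay between 1.16 and 5.36. There 113 of 10550 genes were called higher. With 1 library left out, between 4 and 7 passed. Genes called higher then ranged from 569 of 10662 (without GFP+ library 19) to 1336 of 11905 (without GFP- library 5). Over all genes, 1428 passed in the fit reported, against 2409 without a filter, 920 with the stricter filter and 136 without the covariate, and leaving out a library gave between 721 (without GFP+ library 19) and 2174 (without GFP- library 5), with 740 without GFP- library 20. DESeq2 called 1204 higher and 715 lower genes, where edgeR called 1036 and 392. The number of genes called higher thus moved with the setting, with no ligand changing direction. The protocol difference of *Cxcl10* was -0.13 with library totals in place of 0.04, both far within its SE. The cause of these shifts was not tested. No paired analysis was run, because the populations share no replicate number and no label ties a GFP+ to a GFP- sample. The numbers are adjacent (1 and 2, 4 and 5, 19 and 20), and whether these are pairs cannot be told from the labels. Depth limits *Ccl3*, *Ccl9* and *Cxcl2*, with 6 to 9 reads over all GFP- libraries, and the fold changes of *Ccl6* and *Ccl24*, with 6 and 4.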
